A study of Homo sapiens with 4 samples.

Results

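Oncofetal markers of hepatocellular carcinoma are genes that are active in fetal liver or other fetal tissue, are low in the healthy adult liver, and return in liver tumours. The 10 genes described here are AFP, GPC3, DLK1, LIN28B, PEG10, SPINK1, AKR1B10, TSPAN8, MDK and GOLM1. They were taken by symbol from the 18398 gene rows that each library holds, and all 10 were present once. RNA was sequenced from Huh1 and Huh7, both established human hepatocellular carcinoma cell lines, to ask which transcripts change when CDCA8, a subunit of the chromosomal passenger complex that steers chromosomes through mitosis, is silenced. Each line was transfected either with a negative control siRNA (NCsiRNA), which has no endogenous target, or with CDCA8 siRNA. All 4 groups were cultured and transfected alike, and each group is 1 library of 1 cell line, so the spread between cultures of a group was not measured. Levels are given in RPKM, which count reads relative to transcript length and sequencing depth, so that levels of different genes can be set side by side. Where 4 levels stand together, their order is Huh1 with NCsiRNA, Huh1 with CDCA8 siRNA, Huh7 with NCsiRNA and Huh7 with CDCA8 siRNA.

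Several of these genes are used in the clinic because their products leave the tumour cell: AFP is the fetal counterpart of serum albumin, GPC3 is a heparan sulfate proteoglycan shed from the cell surface, and MDK, SPINK1 and GOLM1 products are found in serum. LIN28B and PEG10 act inside the cell, LIN28B by blocking the maturation of let-7 microRNAs and PEG10 as a retrotransposon-derived gene expressed from the paternal allele. AKR1B10 is an NADPH-dependent aldo-keto reductase, TSPAN8 a membrane tetraspanin, and DLK1 an imprinted membrane protein of the Notch ligand family.

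The promoter windows that held a searched motif, 1 each of AFP and TSPAN8, are shown, and let-7 sites for LIN28B, which is known for its exchange with that microRNA family. RefSeq promoter windows on GRCh38.p14 were found for 5 of the 10 genes, in 8 windows, and the 250 bases before the start were searched on both strands for GTTAAT, the half-site of the hepatocyte factor HNF1, and for the TATA box TATAAA. The motifs do not overlap. The AFP window (chr4:73435971-73436220, plus strand) held 1 copy of each, with the half-site 132 bases before the start. Capitals mark the motifs.
AFP: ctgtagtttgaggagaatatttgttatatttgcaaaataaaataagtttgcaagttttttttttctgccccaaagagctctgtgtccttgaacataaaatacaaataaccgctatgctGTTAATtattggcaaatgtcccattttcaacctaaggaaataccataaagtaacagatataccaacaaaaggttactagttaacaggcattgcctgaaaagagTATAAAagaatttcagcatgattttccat
A window of TSPAN8 (chr12:71157810-71158059, minus strand) held 3 copies of the half-site, at 116, 84 and 52 bases before the start, which is a spacing of 32 bases each time, and no TATA box.
TSPAN8: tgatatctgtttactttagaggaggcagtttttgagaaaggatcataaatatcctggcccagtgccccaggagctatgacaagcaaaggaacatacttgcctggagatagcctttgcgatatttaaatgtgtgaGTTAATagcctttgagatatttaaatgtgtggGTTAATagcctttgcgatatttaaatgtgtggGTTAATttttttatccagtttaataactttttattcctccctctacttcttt
The other TSPAN8 window and the windows of SPINK1, LIN28B and GOLM1 held neither motif. Of 35116 RefSeq promoter windows of the same length, 6.23% held GTTAAT and 10.7% held TATAAA. These are matches of letters only. The starts are those of RefSeq promoter entries. Both windows shown lie within the GENCODE gene spans given below, whose first bases are further upstream.

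LIN28B is both a blocker and a target of let-7. The mature microRNA is printed with its seed, bases 2 to 8, in capitals; all 9 let-7 and miR-98 5p names in RefSeq share this seed.
let-7a-5p: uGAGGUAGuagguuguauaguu
The letters that pair with the seed, CTACCTC, occur 5 times in the LIN28B transcript, of which 4 lie after the coding region. They are printed in transcript order with the site in capitals, and the first is the one that does not lie after the coding region.
LIN28B bases 633 to 639: gctaaggaatgtagtCTACCTCc
LIN28B bases 1000 to 1006: acccggttgcaaagtCTACCTCa
LIN28B bases 3427 to 3433: tactgatgatagtaaCTACCTCt
LIN28B bases 3609 to 3615: gtttacagcaaaaggCTACCTCa
LIN28B bases 5048 to 5054: aaatgatggtgttgaCTACCTCt
Of 17768 transcripts searched, 21.1% held the letters at least once and 0.146% held them 4 times or more. AKR1B10 held 1 copy and the other 8 genes held 0. The let-7 microRNAs themselves were not measured in these libraries.

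The libraries correspond to 12197606 to 13384836 reads, deduced from the value that 1 read gives, and 10750 to 11409 genes per library reached 1 RPKM. CDCA8, the targeted gene, stood at 24.1 RPKM with NCsiRNA and 5.86 with CDCA8 siRNA in Huh1, and at 51.5 and 7.36 in Huh7, so that 24.3% and 14.3% of the control level was left. Of the hepatocyte markers ALB, APOA1, APOB, TTR, TF, SERPINA1 and FGB, 7 of 7 passed the filter on low values. Their summed level was 5104 and 3918 RPKM in Huh1 and 2388 and 1567 RPKM in Huh7 (NCsiRNA and CDCA8 siRNA). The endothelial markers VWF, CDH5 and KDR summed to at most 0.0247 RPKM in any library. The fibroblast markers COL1A1, COL1A2, COL3A1, DCN and LUM summed to 12.1 and 25.8 RPKM in Huh1 and to 283 and 377 RPKM in Huh7, with DCN at 0 in both Huh1 libraries and at 0.136 and 0.406 RPKM in Huh7. The cholangiocyte markers KRT7, KRT19, EPCAM, SOX9 and CFTR summed to 114 and 123 RPKM in Huh1 and 165 and 171 RPKM in Huh7. Within this sum KRT7 was lower in Huh7 (84.4, 81.7, 0.660 and 0.572 RPKM), while the other 4 were higher there. Of the leukocyte markers, LYZ was at 0.855, 1.67, 11.1 and 23.4 RPKM. The part of these differences in the results below was not tested.

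The lines differed in the level of most of these markers, though GPC3 and SPINK1 were high in both. Huh7 had the higher level of AFP, LIN28B, PEG10, MDK, GOLM1 and GPC3, and Huh1 the higher level of AKR1B10, TSPAN8 and SPINK1, while DLK1 was at or next to 0 in every library. With NCsiRNA, 8 of the 9 genes that passed the filter of 1 RPKM differed at least 2-fold on log2(RPKM + 1), 5 higher in Huh7 and 3 higher in Huh1. The same was so for 27.2% of the 11896 genes tested, 17.0% higher and 10.2% lower in Huh7. With CDCA8 siRNA it was 7 of 9, 4 higher and 3 lower in Huh7, against 27.5% of 12005 genes (17.4% and 10.1%). The markers were chosen with earlier results of these data known, so these counts describe them and are not a test. The median over all genes lay 0.14 higher in Huh7 on the log2 scale with both siRNAs, so a difference of a marker is to be read against that shift.

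**Figure D1:**
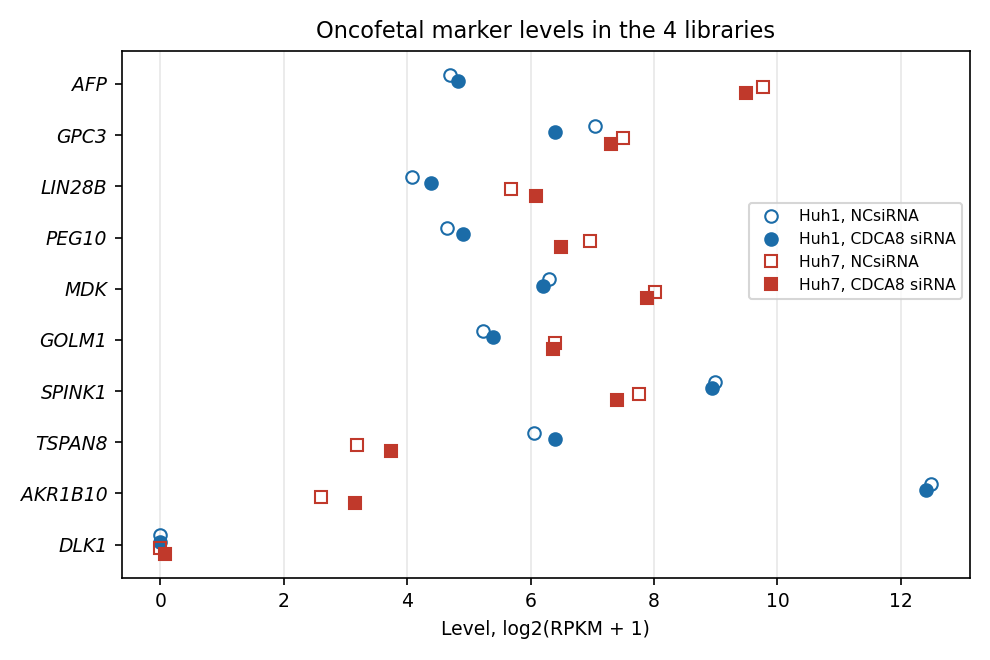
Level of each of the 10 genes on log2(RPKM + 1) (horizontal axis) in the 4 libraries, with 1 symbol per library; circles are Huh1, squares Huh7, open symbols NCsiRNA and filled symbols CDCA8 siRNA. The 2 libraries of a line lie close together for most genes, AFP is far to the right in Huh7, AKR1B10 is far to the right in Huh1, and DLK1 sits at 0.

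AFP (NM_001134; chr4:73431138-73456174 on GRCh38, plus strand) is the main plasma protein of the fetus. Its level was 24.8 RPKM in Huh1 with NCsiRNA, 27.5 in Huh1 with CDCA8 siRNA, 865 in Huh7 with NCsiRNA and 715 in Huh7 with CDCA8 siRNA. Both Huh7 libraries were far above both Huh1 libraries, and AFP ranked 62 and 76 among all genes in Huh7 against 3036 and 2794 in Huh1. The RPKM ratio of Huh7 to Huh1 was 34.9 with NCsiRNA (95% counting interval 32.3 to 37.7) and 26.1 with CDCA8 siRNA (24.2 to 28.1). Intervals here and below cover the counting of reads only, and for GPC3, LIN28B and AKR1B10 they rest on reads estimated from the GENCODE transcript length. A limma fit to the 4 libraries with line and siRNA as terms gave a difference of 4.86 on log2(RPKM + 1) (SE 0.105, Benjamini-Hochberg adjusted p = 1.56e-08). This fit has 1 residual degree of freedom per gene, and limma adds a variance pooled over genes, worth a median of 6.91 degrees of freedom. Each SE and p therefore rests mostly on the pooled variance. They measure how far line differences vary with the siRNA, not how they vary between cultures. The fit called all 9 markers tested. It also called 71.2% of the 11777 genes tested, 42.0% higher and 29.1% lower in Huh7.

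ALB, the adult counterpart of AFP in the same gene cluster, went the other way, with 3447, 2684, 1166 and 721 RPKM in the same order of libraries. AFP therefore amounted to 0.720% and 1.02% of the ALB level in Huh1 and to 74.2% and 99.3% in Huh7. The other albumin family genes, GC (the vitamin D carrier) and AFM, were also lower in Huh7, so 3 of 3 family members other than AFP were lower by limma, with a median log2 difference of -1.73 against 0.13 over all genes tested. Among factors known to act on AFP, FOXA2 was higher in Huh7 (10.4, 9.17, 28.5 and 23.1 RPKM), with a limma difference of 1.31 (SE 0.102, adjusted p = 1.07e-05). CEBPB was lower in Huh7 (31.2, 23.6, 7.54 and 7.4998 RPKM), with a limma difference of -1.72 (SE 0.121, adjusted p = 6.08e-06).

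**Figure D2:**
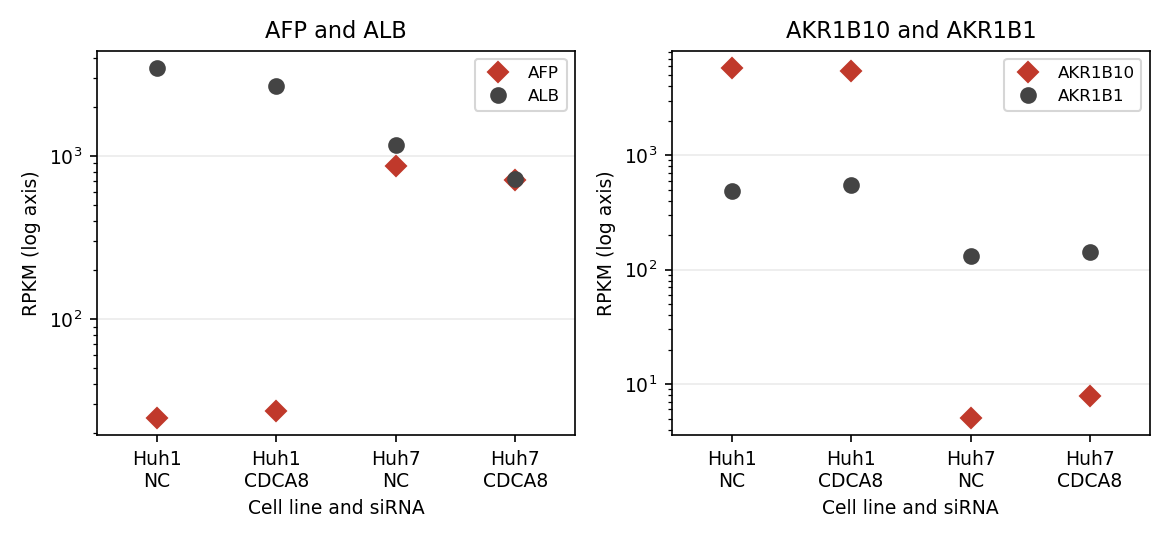
RPKM on a log axis of AFP with ALB (left) and of AKR1B10 with AKR1B1 (right) in the 4 libraries, 1 point per gene and library. AFP approaches ALB in Huh7, and AKR1B10 lies above AKR1B1 in Huh1 and below it in Huh7.

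GPC3 (NM_004484; chrX:133535745-133985895, minus strand) is a glypican that modulates growth factor signalling at the cell surface. It was at 131 and 83.5 RPKM in Huh1 and at 180 and 156 RPKM in Huh7 (NCsiRNA and CDCA8 siRNA). GPC3 was high in all 4 libraries and was the only marker of the 9 without a 2-fold line difference under either siRNA. The ratio of Huh7 to Huh1 was 1.37 (1.32 to 1.43) and 1.87 (1.78 to 1.96), and the limma difference was 0.67 (SE 0.109, adjusted p = 0.000676). The call is lost without the siRNA term (adjusted p = 0.0551). GPC1, the glypican of many adult tissues, stood at 82.9, 87.7, 4.004 and 4.84 RPKM, so that GPC3 was 1.58 and 0.952 times GPC1 in Huh1 and 45.0 and 32.2 times GPC1 in Huh7. Of 6 other glypicans and heparan sulfate enzymes that reached 1 RPKM in both lines, 4 were higher in Huh7, 1 lower (GPC1) and 1 did not pass in limma, and 3 more reached it in Huh7 only. Counts of listed genes between the lines are given likewise below, since a gene that reaches the filter in 1 line only had to differ. Each count is to be read against all genes tested in limma, of which 42.0% were higher and 29.1% lower in Huh7. Here and below, these shares also cover genes that reached 1 RPKM in 1 line only. They therefore rest on a wider set of genes than counts limited to genes that reached it in both lines. Among the 4 listed genes that were higher here was HSPG2, the basement membrane proteoglycan perlecan (1.71, 2.47, 26.1 and 31.0 RPKM). GPC4 reached the filter in Huh7 only (0.101, 0.0816, 5.89 and 3.53 RPKM).

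LIN28B (NM_001004317; chr6:104936616-105083332, plus strand) was at 15.8 and 19.97 RPKM in Huh1 and at 50.1 and 67.2 RPKM in Huh7. Both Huh7 libraries were above both Huh1 libraries, and within each line the CDCA8 siRNA library was the higher. The ratio of Huh7 to Huh1 was 3.17 (2.96 to 3.39) with NCsiRNA and 3.36 (3.17 to 3.57) with CDCA8 siRNA, and the limma difference was 1.65 (SE 0.0912, adjusted p = 1.64e-06). LIN28A, the paralogue of LIN28B, was at 0.169 and 0.199 RPKM in Huh1 and at 19.5 and 20.3 RPKM in Huh7. Huh7 therefore held both paralogues and Huh1 mainly LIN28B.

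Of 13 other genes of the LIN28 and let-7 pathway that reached 1 RPKM in both lines, 9 were higher in Huh7, 3 lower and 1 did not pass in limma. A further 2 (LIN28A and MYCN) reached it in Huh7 only. Over all genes tested, those that reached it in 1 line only included, 42.0% were higher and 29.1% lower. Among known let-7 targets, HMGA2, a chromatin protein of embryonic tissue, was at 1.57, 1.59, 41.7 and 38.9 RPKM (limma difference 4.0007, SE 0.110, adjusted p = 4.46e-08), and its transcript held 5 of the letters CTACCTC. MYCN was at 0.143, 0.0291, 12.6 and 6.46 RPKM and its transcript held 0. HMGA1 went the other way, at 288, 279, 77.9 and 58.6 RPKM, with 1 copy. TRIM71, a stem cell ubiquitin ligase with 7 copies, and IGF2BP1, an oncofetal RNA-binding protein with 4, were 1.48 and 0.62 higher in Huh7 on the log2 scale (limma adjusted p = 1.23e-05 and 0.000547). Genes with fewer copies were higher there too. IGF2BP2, IGF2BP3 and LIN28A held 1 copy each and ARID3B held 2, with limma differences of 0.82, 0.56, 4.14 and 1.19 in that order.

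PEG10 (NM_001040152; chr7:94656325-94669695, plus strand) was at 24.1 and 28.9 RPKM in Huh1 and at 124 and 88.6 RPKM in Huh7. The lines did not overlap, and the ratio of Huh7 to Huh1 was 5.15 (4.92 to 5.40) with NCsiRNA and 3.07 (2.93 to 3.21) with CDCA8 siRNA (limma difference 1.95, SE 0.155, adjusted p = 1.21e-05). SGCE, its imprinted neighbour, was at 14.5, 13.9, 29.1 and 25.2 RPKM, and MEST, another paternally expressed gene, at 8.14, 7.77, 82.3 and 60.3 RPKM. IGF2, the fetal growth factor, had the widest gap of the imprinted list, with 0.00615 and 0.0391 RPKM in Huh1 and 142 and 69.8 RPKM in Huh7. SGCE and MEST were higher in Huh7 in limma, and IGF2 reached 1 RPKM in Huh7 only.

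DLK1 (NM_003836; chr14:100725705-100738224, plus strand) was listed at 0 in both Huh1 libraries and in Huh7 with NCsiRNA, and at 0.0513 RPKM in Huh7 with CDCA8 siRNA. With the GENCODE transcript length, a count of 0 allows up to 0.0475 to 0.0521 RPKM (3 reads), so DLK1 was not detectable at this depth in 3 libraries and was at that limit in the fourth. That length is 4722 bases. If the authors used a shorter transcript, the limit is higher and the value in the fourth library stands for fewer reads. It entered no comparison. Of 6 other Notch pathway genes that reached 1 RPKM in both lines, 3 were higher in Huh7, 1 lower and 2 did not pass. Over all genes tested, those that reached it in 1 line only included, 42.0% were higher and 29.1% lower. The ligand JAG1 was at 26.0, 25.7, 137 and 129 RPKM. The ligand JAG2, which reached 1 RPKM in Huh1 only, was at 4.93, 5.15, 0.0807 and 0.0723 RPKM.

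MDK (NM_002391; chr11:46380756-46383837, plus strand) encodes midkine, a heparin-binding growth factor. It was at 77.9 and 72.4 RPKM in Huh1 and at 259 and 236 RPKM in Huh7, and both Huh7 libraries were above both Huh1 libraries. The ratio was 3.32 (3.08 to 3.58) and 3.26 (3.01 to 3.53), nearly the same with both siRNAs, and the limma difference was 1.70 (SE 0.0754, adjusted p = 4.85e-07). The related ligand PTN and the receptors ALK, LTK and PTPRZ1 did not pass the filter. Of 8 other midkine pathway genes tested, 7 were higher in Huh7, among them the receptors SDC3 (1.18, 1.70, 9.72 and 11.3 RPKM) and ITGA6 (20.7, 20.1, 52.0 and 47.3 RPKM). The syndecan SDC1 was lower (47.7, 45.6, 17.6 and 12.0 RPKM). Over all genes tested, 42.0% were higher and 29.1% lower.

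GOLM1 (NM_016548; chr9:86026146-86100173, minus strand) encodes the Golgi membrane protein GP73. Its levels were 36.5 and 40.9 RPKM in Huh1 and 83.6 and 80.9 RPKM in Huh7, so Huh7 was higher. GOLM1 is the gene nearest to the 2-fold line: on log2(RPKM + 1) its difference was 1.17 with NCsiRNA and 0.97 with CDCA8 siRNA, with RPKM ratios of 2.29 (2.15 to 2.44) and 1.98 (1.86 to 2.10). The limma difference was 1.07 (SE 0.0911, adjusted p = 1.75e-05). Of 9 other Golgi membrane genes, 4 were higher, 1 lower and 4 did not pass. Over all genes tested, 42.0% were higher and 29.1% lower. FURIN, the Golgi protease known to cleave GP73 for release, was at 32.6, 31.2, 103 and 79.6 RPKM.

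**Figure D3:**
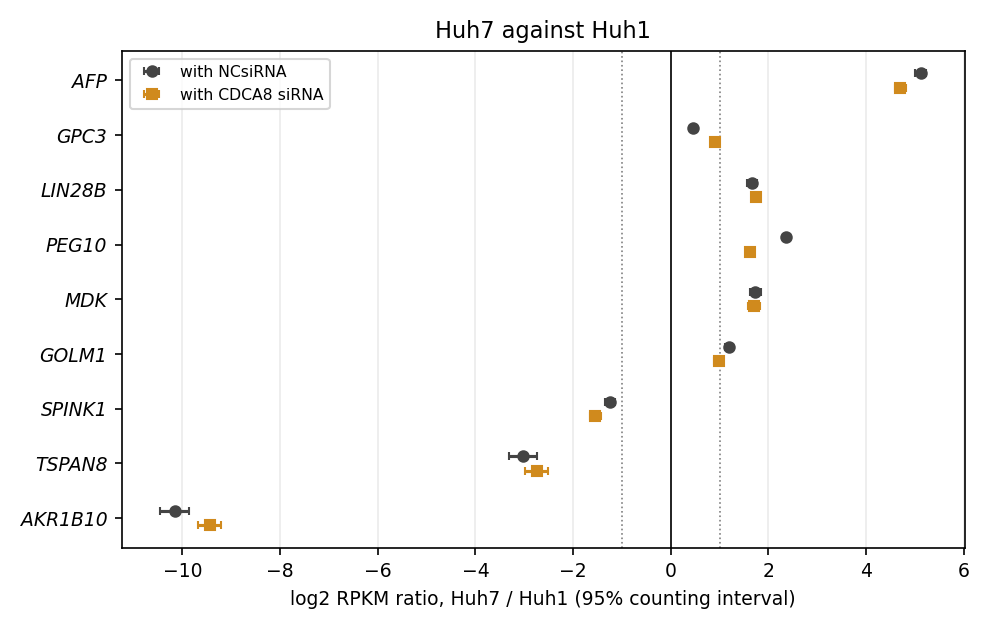
log2 of the RPKM ratio of Huh7 to Huh1 for the 9 genes above the filter, with NCsiRNA (circles) and CDCA8 siRNA (squares). Bars are 95% counting intervals, often smaller than the symbol, and dotted lines mark 2-fold; 6 genes lie to the right of 0 and 3 to the left under both siRNAs.

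AKR1B10 (NM_020299; chr7:134527592-134541408, plus strand) reduces retinal and other reactive aldehydes. It stood at 5758 RPKM in Huh1 with NCsiRNA, 5427 in Huh1 with CDCA8 siRNA, 5.07 in Huh7 with NCsiRNA and 7.87 in Huh7 with CDCA8 siRNA. In Huh1 it was the transcript of rank 2 in both libraries and made up 1.24% and 1.195% of the summed RPKM, whereas in Huh7 it ranked 8513 and 7354. The level in Huh1 was 1136 times that in Huh7 with NCsiRNA (935 to 1404) and 690 times with CDCA8 siRNA (590 to 816), and the limma difference was -9.57 (SE 0.134, adjusted p = 4.91e-09).

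AKR1B10 and AKR1B15 transcripts are 94.3% identical over 1196 aligned bases, so reads could be divided between them and both values are uncertain. AKR1B15 was at 299 and 221 RPKM in Huh1 and at 0.151 and 0.151 RPKM in Huh7. That was lower than AKR1B10 by factors of 19.3 and 24.5 in Huh1. In Huh7 the AKR1B15 values are near the 0.155 and 0.154 RPKM that 3 reads give for AKR1B10, a transcript of similar length, so no factor is given there. AKR1B1, the aldose reductase of most tissues and 79.8% identical over 906 bases, was at 485, 545, 132 and 141 RPKM. AKR1B10 was 11.9 and 9.97 times AKR1B1 in Huh1, and 3.84% and 5.56% of it in Huh7.

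The list of aldo-keto reductases, NRF2 targets, NRF2 itself and its inhibitor lay mostly on the side of AKR1B10. Of 15 other genes of this list that reached 1 RPKM in both lines, 14 were lower in Huh7, 0 higher and 1 did not pass. AKR1B15 reached it in Huh1 only and AKR1D1, a bile acid enzyme, in Huh7 only. AKR1C1, a steroid-reducing relative, was at 4497, 3144, 29.6 and 43.1 RPKM, and AKR1C3 at 1054, 667, 9.95 and 7.59 RPKM. HMOX1, which degrades heme, was at 206, 283, 6.39 and 16.2 RPKM. NFE2L2, which encodes NRF2 itself, and KEAP1, its inhibitor, were also lower in Huh7 by limma, with differences of -0.44 and -0.84. AKR1C1 and AKR1C2 are near copies (96.9% identical over 548 bases) and their split of reads is uncertain.

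**Figure D4:**
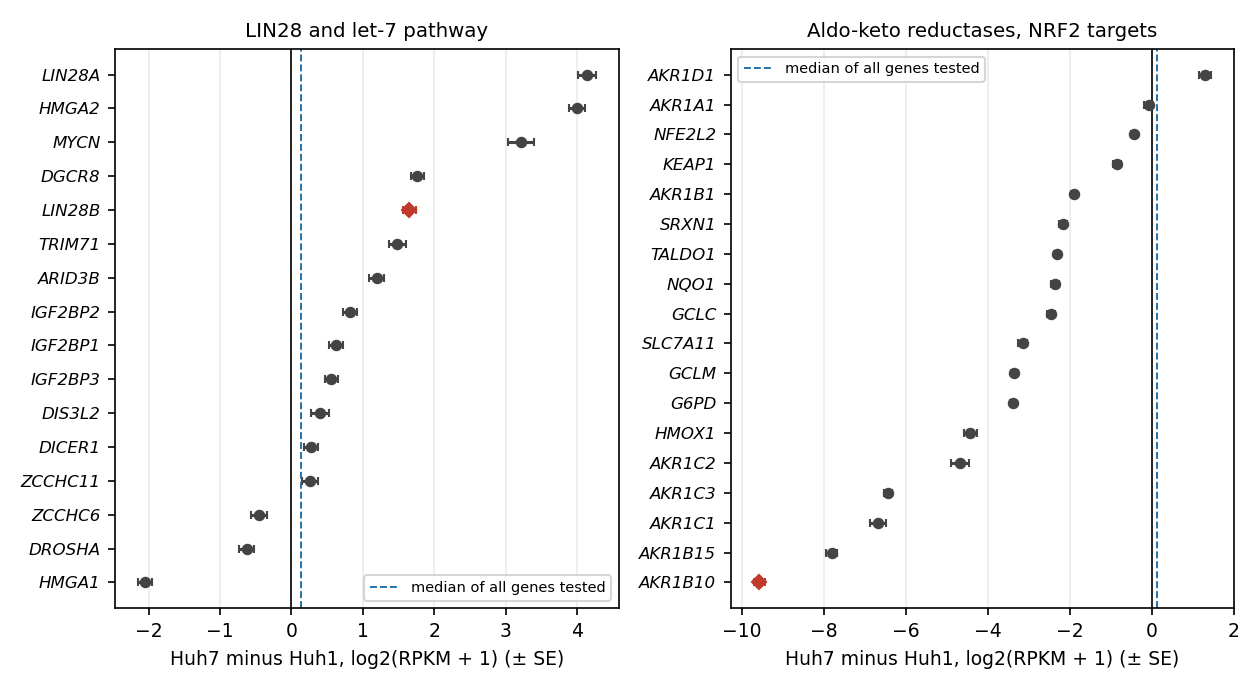
Limma difference of Huh7 minus Huh1 on log2(RPKM + 1) with its SE (bars) for the LIN28 and let-7 pathway (left) and for aldo-keto reductases and NRF2 targets (right), genes ordered by difference. Red diamonds are LIN28B and AKR1B10, and the dashed line is the median of all genes tested, 0.13; most genes lie to the right of it on the left and to the left of it on the right.

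TSPAN8 (NM_004616; chr12:71125085-71441898, minus strand) was at 65.8 and 83.1 RPKM in Huh1 and at 8.13 and 12.4 RPKM in Huh7. Huh1 was higher by a factor of 8.10 (6.65 to 9.93) with NCsiRNA and of 6.70 (5.71 to 7.90) with CDCA8 siRNA, and the limma difference was -2.76 (SE 0.0996, adjusted p = 1.70e-07). The Huh7 values rest on 112 and 172 reads. Of 14 other tetraspanins tested, 4 were higher in Huh7, 4 lower and 6 did not pass, a median of -0.07. Over all genes tested, 42.0% were higher and 29.1% lower, with a median of 0.13. TSPAN7 had the widest gap, at 81.2, 76.9, 1.05 and 1.87 RPKM.

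SPINK1 (NM_003122; chr5:147824568-147831786, minus strand) encodes a secreted trypsin inhibitor. It was at 509 and 488 RPKM in Huh1 and at 215 and 167 RPKM in Huh7, high in all 4 libraries and higher in both Huh1 libraries. Huh1 was higher by a factor of 2.37 (2.21 to 2.54) and of 2.92 (2.71 to 3.15), and the limma difference was -1.39 (SE 0.0878, adjusted p = 3.49e-06). After quantile normalization the difference with NCsiRNA was -0.995 on the log2 scale and just missed 2-fold. Of 4 other genes of the trypsin list that reached 1 RPKM in both lines, 2 were higher in Huh7, 1 lower and 1 did not pass. SPINT1, an inhibitor of serine proteases, was higher (1.60, 3.06, 11.1 and 11.4 RPKM), as was F2RL1, a receptor cleaved by trypsin (10.3, 14.6, 20.5 and 29.1 RPKM). Trypsinogen PRSS1 was listed at 0 in all libraries, while PRSS3, another trypsinogen, was at 28.0 and 24.3 RPKM in Huh1 and at 0 and 0.202 RPKM in Huh7. SERPINA1, the antitrypsin of hepatocytes, was lower in Huh7 (538, 420, 219 and 160 RPKM).

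Among 8 tested genes of the oncofetal list that are in neither the let-7 nor the imprinted list, 7 were higher in Huh7 and 1 lower. Over all genes tested, 42.0% were higher and 29.1% lower. Of the 7, 1 (SALL4) reached 1 RPKM in Huh7 only. AURKA was also among the 7, as was TFF1, which lay near the filter (0, 1.23, 0.4999 and 1.99 RPKM). The lower gene was S100P, a calcium-binding protein first found in placenta, at 179, 190, 10.3 and 12.9 RPKM. KRT19, a bile duct and progenitor keratin, was at 12.0, 20.5, 110 and 112 RPKM. Of 12 adult hepatocyte genes that reached 1 RPKM in both lines, 4 were higher in Huh7, 7 lower (TF among them, which changed sign after quantile normalization) and 1 did not pass. The urea cycle enzyme CPS1 reached it in Huh1 only (95.03, 49.2, 0.0996 and 0.269 RPKM).

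By the distance between centred log2(RPKM + 1) values over the 4 libraries, the genes most like AFP were CADM1 (distance 0.147; 0.165, 0.198, 33.2 and 30.7 RPKM) and ENPP2 (0.202; 0.593, 0.671, 43.5 and 38.0 RPKM). Those most like AKR1B10 were GSTA1 (distance 0.825; 743, 506, 0.195 and 0.518 RPKM) and CES1 (1.26; 1991, 1985, 0.0817 and 0.163 RPKM). The 4 libraries are those of the comparison itself, so the distances mainly follow the difference between the lines.

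With CDCA8 siRNA the levels of these markers stayed within 2-fold of the control in both lines. No marker reached 2-fold in either line: 0 of 9 in Huh1, where 0.494% of 10940 genes did, and 0 of 9 in Huh7, where 1.57% of 11565 did. The differences on log2(RPKM + 1) ran from -0.64 (GPC3) to 0.33 (TSPAN8) in Huh1 and from -0.48 (PEG10) to 0.56 (TSPAN8) in Huh7. In the limma fit over both lines, TSPAN8 was the only marker of 9 to pass (higher), against 6.16% of the 11777 genes tested (3.59% higher). Over all genes limma made 0 knockdown calls without the filter (2440 at an unadjusted p under 0.05) and 0 without the line term (77), so each limma knockdown call given here ends under both settings.

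With NCsiRNA and CDCA8 siRNA in turn, TSPAN8 stood at 65.8 and 83.1 RPKM in Huh1, and at 8.13 and 12.4 RPKM in Huh7. It was higher with CDCA8 siRNA in both lines, by a factor of 1.26 (1.16 to 1.38) and of 1.53 (1.197 to 1.955), and rose by 0.44 in limma (SE 0.0996, adjusted p = 0.0426). The call rests on the fit: the adjusted p was 0.268 without the filter, 0.0975 without the mean-variance trend and 1.0 without the line term, and the lowest of the 7 alternatives gave 0.0157.

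LIN28B and GPC3 had differences of the same sign in both lines and did not pass the test. LIN28B was 1.26 times (1.17 to 1.37) the NCsiRNA level in Huh1 and 1.34 times (1.283 to 1.403) in Huh7, with a limma difference of 0.37 (adjusted p = 0.0566, range 0.0251 to 1.0 over alternatives). GPC3 was 0.638 times (0.608 to 0.669) its NCsiRNA level in Huh1 and 0.867 times (0.835 to 0.901) in Huh7, with a limma difference of -0.42 (adjusted p = 0.0619, range 0.0144 to 1.0). Both passed after quantile normalization and after upper quartile scaling, and LIN28B also at a minimum of 5 RPKM (adjusted p = 0.0484).

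The other 6 markers had limma adjusted p from 0.195 (SPINK1) to 0.754 (AFP). SPINK1 and MDK were at or below their NCsiRNA level in both lines, SPINK1 at 95.8% and 77.6% and MDK at 93.0% and 91.2%. AFP, PEG10, GOLM1 and AKR1B10 differed in sign between the lines. AFP was at 111% of its NCsiRNA level in Huh1 and 82.7% in Huh7, PEG10 at 120% and 71.3%, GOLM1 at 112% and 96.9%, and AKR1B10 at 94.3% and 155%. The AKR1B10 value in Huh7 rests on 98 and 153 reads. For PEG10 the log2 change in Huh7 was 0.75 below that in Huh1 (counting interval -0.84 to -0.66), the widest of the 9 gaps, and it could not be set against the spread between cultures.

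**Figure D5:**
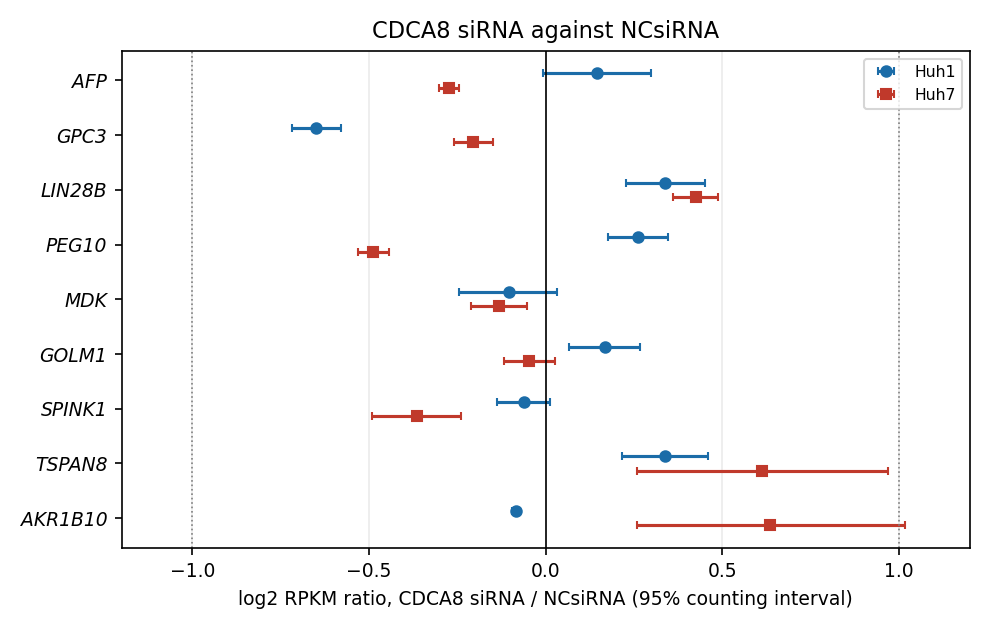
log2 of the RPKM ratio of CDCA8 siRNA to NCsiRNA for the 9 genes above the filter in Huh1 (circles) and Huh7 (squares). Bars are 95% counting intervals and dotted lines mark 2-fold, which no gene reaches; TSPAN8 and LIN28B lie to the right of 0 in both lines, GPC3 to the left, and PEG10 on opposite sides.

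Adult liver genes fell beside these markers. Of 16 adult hepatocyte genes, 10 fell with CDCA8 siRNA, 0 rose and 6 did not pass in limma, with a median log2 difference of -0.53 against 0.03 over all genes. Without the mean-variance trend 2 fell, and without the filter or the line term 0 did. ALB fell by 0.53 (SE 0.0850, adjusted p = 0.0168), GC by 1.26 (SE 0.164, adjusted p = 0.00867) and APOB by 0.70 (SE 0.0844, adjusted p = 0.00704) in this fit. AFP, the fetal member of the albumin family, had a difference of -0.07 in the same fit and did not pass. That value averages opposite signs, since AFP was at 111% of its NCsiRNA level in Huh1 and at 82.7% in Huh7. Among factors known to act on AFP, CEBPA (94.4 to 47.2 RPKM in Huh1, 68.9 to 30.3 in Huh7) and HNF4A (86.1 to 59.1 and 55.4 to 38.8) fell. Of 4 fibroblast markers tested, 1 rose in limma, LUM (12.0 to 25.6 RPKM in Huh1, 143 to 190 in Huh7), and 3 did not pass. The 1 leukocyte marker tested, LYZ, also rose (0.855 to 1.67 and 11.1 to 23.4). The part of LUM and LYZ in these results was not tested. In bulk RNA, fewer cells that express a gene and less of its RNA per cell cannot be told apart.

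Across all genes limma called 6.16% after silencing, and the counts in the gene groups around the markers are given against that share. In limma 0 of 15 passed in the LIN28 and let-7 pathway (2 at an unadjusted p under 0.05), 0 of 8 in the midkine list (1), 0 of 14 among the other tetraspanins (1), 0 of 7 among Notch genes (2) and 0 of 3 among imprinted genes (0). After quantile normalization 1 of the 15 and 2 of the 7 were lower, and after upper quartile scaling 1 of the 7. At an adjusted p under 0.05, 2 of 17 aldo-keto and NRF2 genes passed in opposite directions. HMOX1 rose by 0.83 (SE 0.159, adjusted p = 0.0274) and AKR1C3 fell by 0.50 (SE 0.0961, adjusted p = 0.0274). Of 12 other genes of the oncofetal list that reached 1 RPKM with both siRNAs 0 passed (2 at an unadjusted p under 0.05). TFF1, a secreted mucosal peptide, reached it with CDCA8 siRNA only and was listed at 0 and 1.23 RPKM in Huh1 and at 0.4999 and 1.99 RPKM in Huh7. Of 9 glypican and heparan sulfate genes 1 fell, the chain-elongating enzyme EXT2 (13.7 to 9.89 and 22.6 to 15.2 RPKM). Of 6 trypsin genes F2RL1 rose (10.3 to 14.6 and 20.5 to 29.1 RPKM) and SERPINA1 fell, and of 9 Golgi genes GOLGA2 rose and GOLPH3 fell.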

How the data were processed

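The 4 libraries, 1 per line and siRNA, were prepared with an Illumina TruSeq kit. The authors deposited RPKM values for 18398 RefSeq transcripts per library; the submitters' processing notes name CASAVA 1.8.2, TopHat2 2.0.9 and hg19, and the counter and annotation are not given in the sources used here. The unit was deduced from the values. Reads and 95% counting intervals were derived from the value of 1 read (tolerance 0.02) and transcript length. Log2(RPKM + 1) was compared between libraries over genes with at least 1 RPKM in 1 of the pair, with a call at 2-fold. Limma 3.58.1 (R 4.3.3; lmFit, eBayes with trend, Benjamini-Hochberg) was fitted to genes with at least 1 RPKM in 2 libraries. Sequences came from RefSeq (GRCh38.p14), and gene positions and transcripts from GENCODE 29 (GRCh38); no hg19 coordinates are given. Members and lists were chosen with earlier results of these data known. Named genes are the 10 members, CDCA8, for each list up to 4 genes with the largest line or knockdown difference or those at 0, and the 2 nearest genes of a member whose lines differ by at least 3 on the log2 scale; other genes named beside them were chosen after their values were seen. Alternatives were a pseudocount of 0.1, no filter, a minimum of 5 RPKM, quantile and upper quartile scaling, and limma without trend or without a covariate. Some listed genes are not reported here.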

Additional observations from a re-analysis of the deposited data

Results flagged for a closer look

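The change with CDCA8 siRNA had opposite signs in Huh1 and Huh7 for 4 of the 9 markers above the filter, given as log2 RPKM ratios. AFP was at 0.15 in Huh1 and -0.27 in Huh7, PEG10 at 0.26 and -0.49, AKR1B10 at -0.085 and 0.63, and GOLM1 at 0.17 and -0.046. With 1 library per line and siRNA, the difference between the lines was not tested for any of them. Counting of reads alone gives intervals that include 0 for AFP in Huh1 (-0.01 to 0.30) and for GOLM1 in Huh7 (-0.12 to 0.03).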

How the results depend on the processing

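The labels give no replicate numbers, and with 1 library per group no replicate could be left out; silencing was compared within lines through the line term. No marker changed direction under any alternative, and of the listed genes called in limma only TF did so between scalings (line difference -0.21, and 0.06 after quantile normalization). With a pseudocount of 0.1 RPKM, 164 genes reached 2-fold after silencing in Huh1 in place of 54 (35 higher, 19 lower), and 422 in Huh7 in place of 182; after quantile normalization it was 22 higher and 20 lower in Huh1. The limma knockdown calls went from 726 genes to 0 without the filter (2440 at an unadjusted p under 0.05), 1237 after quantile normalization, 1139 after upper quartile scaling, 213 without the trend and 0 without the line term (77 unadjusted). Among the markers the limma knockdown count went from 1 to 0 without the filter, 2 at a minimum of 5 RPKM, 3 after quantile normalization and after upper quartile scaling, and 0 without the trend or the line term; the cause was not tested. Of 306 further values for single markers, 4 lost and 5 gained a limma call. Of the fold values 14 moved by more than counting error, and SPINK1 with NCsiRNA, 1 of these, lost its 2-fold call after quantile normalization (-0.995). Depth limits DLK1 in all libraries and AKR1B10 and TSPAN8 in Huh7.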
